A study of Mus musculus with 12 samples.

Results

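The genes of the mitochondrial respiratory chain and the ATP synthase were followed across CD4+ T cells sorted from mouse Peyer's patches. Members were the genes whose symbol begins as a nuclear subunit of complex I (Nduf), II (Sdh), III (Uqcr), IV (Cox4 to Cox8) or V (Atp5) and which had a probe set naming that gene alone. They numbered 81 of 19937 named genes, with 35 in complex I, 4 in complex II, 8 in complex III, 17 in complex IV and 17 in complex V. A gene was tested if, on 3 arrays or more, it exceeded that array's median probe set, which held for 77 of the 81. Ndufa4, counted under complex I by its name, is now regarded as a complex IV subunit. Cox7c and Ndufb4 were not analysed here.

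The mice carried an IL-21eGFP bacterial artificial chromosome transgene, in which green fluorescent protein reports the gene for interleukin 21, and all 12 samples came from such mice. CD4+ cells negative for MHC class II and Epcam were sorted into 4 groups of 3 samples, each on its own Affymetrix mouse gene array. T follicular helper (Tfh) cells, which instruct B cells in germinal centres, were CXCR5+PD1+ and either GFP+ or GFP-. The remaining populations, both GFP-, were CXCR5+PD1- and CXCR5-PD1-, of which the sorting protocol names only the latter. For the GFP+ group the sample titles give CXCR5+PD1+ whereas another label field gives both receptors as negative, and the titles were followed. Age, sex and strain are not in the labels. Whether each replicate is a different animal is not stated either, so a p-value here reflects sample-to-sample spread that may be technical. GFP marks cells in which the transgene, not the native Il21 gene, was active.

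Values are log2 expression, so a difference of 1 is a doubling, and differences are given ± SE. Each comparison was tested with limma across 11240 genes, and a gene was said to have passed at an adjusted p under 0.05 (Benjamini-Hochberg). Of 7 T cell markers tested, Cd4 and Cd3g were higher in both Tfh over both PD1- groups, by 0.54 ± 0.10 and 0.32 ± 0.09 (limma, adjusted p = 0.00457 and 0.047), and the other 5 did not pass. The part of these markers in the members' differences was not tested. Cxcr5, Pdcd1 and Il21 transcripts separated the Tfh groups from the others. Il21 stood at 10.82, 10.73 and 10.25 in GFP+ Tfh cells, 10.17, 10.15 and 9.57 in GFP- Tfh cells and 5.39 to 7.63 in PD1- cells. The GFP- Tfh cells thus also held Il21 transcript. In CXCR5+PD1- cells, however, Cxcr5 stood at 5.87, 5.78 and 5.19, overlapping the 6.19, 5.59 and 5.36 of CXCR5-PD1- cells and below the array medians of 6.34 to 6.45. Of the B cell list 3 of 9 genes on the array were tested, all 3 lay above 0 and Pax5 was higher in the Tfh groups, by 0.30 ± 0.07 (limma, adjusted p = 0.0193). The summed linear level of the list was 422 to 510 in GFP+ Tfh, 425 to 483 in GFP- Tfh, 433 to 446 in CXCR5+PD1- and 396 to 465 in CXCR5-PD1- cells. Its defining genes Cd79a and Ms4a1 lay below the median in both pooled groups, and the list's part in the members' differences was not tested. The third GFP+ Tfh array stood apart for many members, as described below, and counts of calls and the complex I pattern between the Tfh groups are given with and without it.

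The respiratory chain passes electrons from NADH through complex I, or from succinate through complex II, to ubiquinone, then through complex III and cytochrome c to complex IV, where oxygen is reduced. Complexes I, III and IV pump protons out of the mitochondrial matrix, and the ATP synthase, complex V, uses their return to make ATP. Most subunits are encoded in the nucleus and a few of the core subunits in mitochondrial DNA. T cells raise both glycolysis and respiration after activation, and T cell subsets are known to rely on them to different degrees.

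Most members, like most genes tested, had group means within 0.5 log2 units of each other, 77.9% against 76%. In the mean of both Tfh groups over both PD1- groups 3 members were higher and 1 was lower out of 77, against 5.05% of all genes higher, 5.33% lower and 10.4% in either direction. The 3 were the complex I subunits Ndufb3, Ndufa1 and Ndufb7, and the 1 was Cox7a2l, a factor that joins complexes III and IV. The median difference of the 77 members was 0.07, against -0.02 over all genes tested, and 61.0% of members lay above 0, against 46.1% of all genes. The share of members that passed was below that of all genes. At an unadjusted p under 0.05 there were 18 members, 16 higher and 2 lower, against 21.5% of all genes, 9.95% higher and 11.6% lower.

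Between GFP+ and GFP- Tfh cells, the comparison named as the aim of the experiment, 0 of 77 members passed in limma, against 0.0445% of all genes, and 3 members had an unadjusted p under 0.05, against 7.37% of all genes. Those 3 were Ndufb3 and Ndufa8, an accessory subunit, which were higher in GFP+ cells, and Uqcrc1, a core protein of complex III, which was lower. The 3 GFP+ and 3 GFP- arrays did not overlap for 2 higher members, Ndufb3 and Ndufa8, and 2 lower ones, Uqcrc1 and Atp5d, against 3.09% and 5.65% of all genes. In GFP- Tfh over CXCR5-PD1- cells 0 of 77 passed in limma, against 3.82% of all genes, and 8 had an unadjusted p under 0.05, against 13.2%. In GFP+ Tfh over CXCR5-PD1- cells Ndufb3 and Ndufa1 passed, both higher, against 2.45% of all genes higher and 6.2% in either direction, and 11 members had an unadjusted p under 0.05, against 18.7%. On simulated data, in which 200 of 11240 genes were changed, 23.8% of calls in this comparison were false. In the measured data 697 genes passed. The false share depends on how many genes truly change, and no simulated array was made to stand apart as the third GFP+ array did. It may therefore not carry over to these calls. The median SD of the members was 0.31 among GFP+ arrays and 0.14 to 0.17 in the other groups, against 0.261 and 0.133 to 0.155 over all genes. In CXCR5+PD1- over CXCR5-PD1- cells 0 members and 0% of all genes passed in limma, and 0 members had an unadjusted p under 0.05, against 1.22%. These comparisons share arrays and are not independent of each other.

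**Figure D1:**
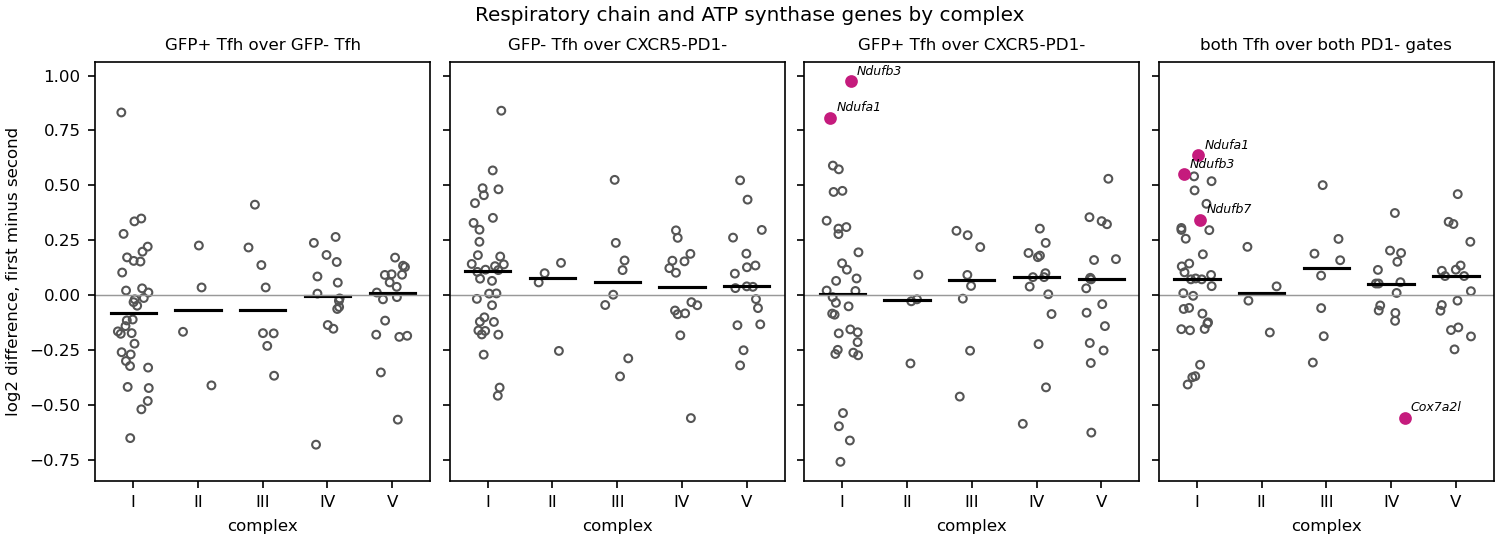
Log2 difference (vertical axis) of each of 77 tested members by complex (horizontal axis) in 4 comparisons; each circle is a gene, filled circles passed at an adjusted p under 0.05 and bars are medians. The medians lie near 0 in every complex, and the filled circles are Ndufb3 and Ndufa1 for GFP+ Tfh over CXCR5-PD1- cells, with Ndufb7 and Cox7a2l added for both Tfh groups over both PD1- groups.

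The 95% intervals give the size of difference that the arrays leave possible, given 1 spread shared by all 4 groups. Their median half-width for members was thus 0.41 in every comparison of 2 groups. The median SD of members was 0.31 among GFP+ arrays and 0.14 to 0.17 in the other groups. Intervals for GFP+ cells against 1 other group may therefore be too narrow. For both Tfh over both PD1- groups the 95% interval of 73 of 77 members lay within 1 log2 unit of 0, and that of 38 lay within 0.5, or 94.8% and 49.4%, against 91.5% and 63.3% of all genes. For GFP+ over GFP- Tfh cells the interval of 66 of 77 lay within 1 unit and that of 32 within 0.5, or 85.7% and 41.6%, against 88.6% and 47.7%. Across the 4 groups the span between a member's highest and lowest group mean had a median of 0.32, against 0.28 over all genes, and was under 0.5 for 60 members, or 77.9%, against 76% of all genes tested.

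Ndufb3, an accessory subunit of the membrane arm of complex I, had the widest span of all members. It stood at 8.24, 8.26 and 8.27 in GFP+ Tfh cells, 7.52, 7.45 and 7.30 in GFP- Tfh cells, 7.46, 7.45 and 6.98 in CXCR5+PD1- cells and 7.42, 7.22 and 7.21 in CXCR5-PD1- cells. All 3 GFP+ arrays lay above all 9 others, and the other 3 groups overlapped. Of all genes 3.09% had the GFP+ arrays above the GFP- Tfh arrays, and the share above all 9 others was not counted. The difference of GFP+ Tfh over CXCR5-PD1- cells was 0.97 ± 0.14 (limma, adjusted p = 0.00166) and passed in all 22 alternatives. Against GFP- Tfh cells it was 0.83 ± 0.14 (limma, adjusted p = 0.136), higher in 3 of 3 arrays, and its adjusted p ran from 0.0339 to 1 over 22 alternatives, of which 3 passed. GFP- Tfh over CXCR5-PD1- cells gave 0.14 (limma, adjusted p = 0.867). The pooled Tfh difference of 0.55 ± 0.10 (limma, adjusted p = 0.00392) joined a high level in GFP+ cells to levels in GFP- cells that overlapped both PD1- groups.

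Ndufa1, an X-linked accessory subunit needed for assembly of the complex I membrane arm, was high in both Tfh groups. It stood at 10.58, 9.93 and 10.97 in GFP+ Tfh cells, 10.56, 10.53 and 10.48 in GFP- Tfh cells, 10.10, 10.04 and 10.03 in CXCR5+PD1- cells and 9.93, 9.57 and 9.54 in CXCR5-PD1- cells. The GFP- Tfh arrays lay above all 6 PD1- arrays, while the second GFP+ array fell among them. Of all genes 11.4% had the GFP- Tfh arrays above the CXCR5-PD1- arrays, and the share above all 6 was not counted. The pooled difference was 0.64 ± 0.15 (limma, adjusted p = 0.0186) and passed in 20 of 21 alternatives, and without the third CXCR5-PD1- array its adjusted p was 0.051. Against CXCR5-PD1- cells GFP+ Tfh cells differed by 0.81 ± 0.21 (limma, adjusted p = 0.0466), which passed in 6 of 22 alternatives, and GFP- Tfh cells by 0.84 ± 0.21 (limma, adjusted p = 0.0538), which passed in 8 of 22. The call for GFP+ cells was lost when any of 11 of the 12 arrays was left out, the exception being the second GFP+ array.

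Ndufb7, an accessory subunit on the intermembrane space side of complex I, showed a smaller difference. It stood at 9.17, 9.27 and 8.90 in GFP+ Tfh cells, 9.27, 9.35 and 9.15 in GFP- Tfh cells, 8.93, 8.84 and 8.76 in CXCR5+PD1- cells and 8.99, 8.58 and 8.93 in CXCR5-PD1- cells. Only the third GFP+ array reached into the range of the PD1- groups. The pooled difference was 0.34 ± 0.10 (limma, adjusted p = 0.0489), close to the threshold, and passed in 6 of 21 alternatives with adjusted p from 0.00792 to 0.119.

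**Figure D2:**
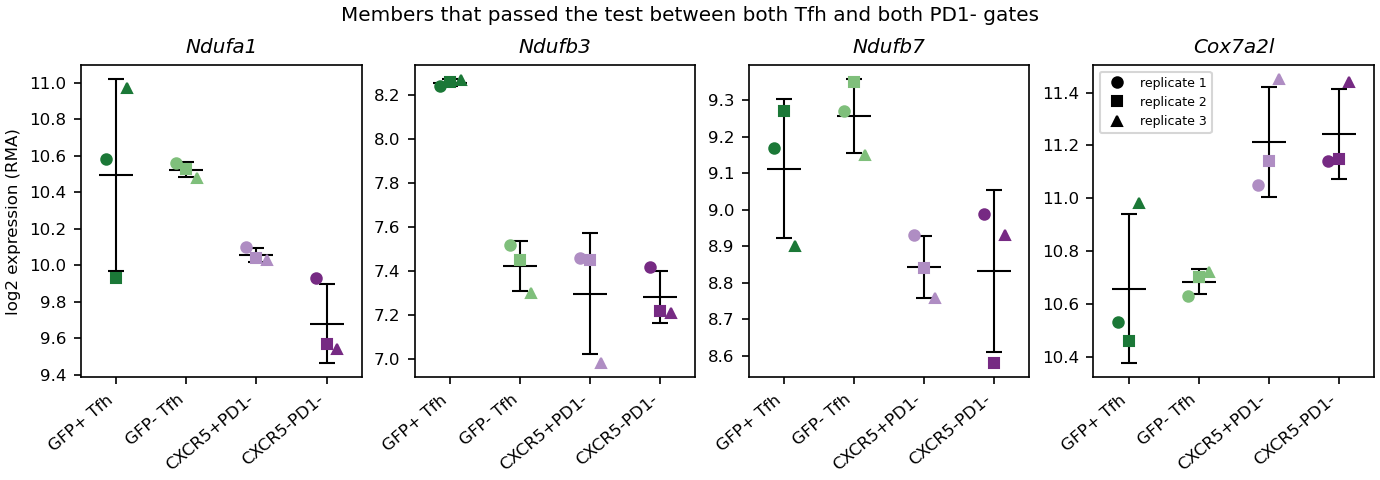
Log2 expression (vertical axes, a separate range for each gene) of the 4 members that passed between both Tfh and both PD1- groups, by sort group (horizontal axis); symbols are single arrays by replicate number, horizontal bars are means and whiskers are SD (n = 3). Ndufb3 is high on the 3 GFP+ arrays, and Cox7a2l is lower on all 6 Tfh arrays than on all 6 PD1- arrays.

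The core subunits of the peripheral arm of complex I, most of which hold the flavin or iron-sulphur clusters, did not pass. In both Tfh over both PD1- groups Ndufv1, which binds NADH, differed by 0.07 ± 0.11, its partner Ndufv2 by 0.31 ± 0.14, Ndufs1 by 0.00 ± 0.17, Ndufs3 by -0.16 ± 0.14, Ndufs7 by 0.08 ± 0.09 and Ndufs8 by 0.30 ± 0.12. Their adjusted p-values in limma ran from 0.156 for Ndufs8 to 0.995 for Ndufs1. Of all 34 tested complex I genes 21 lay above 0, with a median of 0.07. In GFP+ over GFP- Tfh cells 13 of 34 lay above 0, with a median of -0.08, against 46.3% of all genes above 0. Without the third GFP+ array 17 of 34 lay above 0 and the median was 0.00, and Ndufa9, for example, went from -0.42 to 0.61.

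Succinate dehydrogenase, complex II, belongs to both the citric acid cycle and the respiratory chain. In both Tfh over both PD1- groups its 4 subunits differed by 0.22 ± 0.19 for Sdha, which holds the flavin, -0.03 ± 0.30 for the iron-sulphur subunit Sdhb, and 0.04 ± 0.09 and -0.17 ± 0.10 for the membrane anchors Sdhc and Sdhd. No subunit of the 4 passed in any of the 5 comparisons. The wide error of Sdhb came with a value of 6.08 on the third GFP+ array, against 7.32 to 8.21 on the other 11.

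Complex III showed members on both sides of 0. In both Tfh over both PD1- groups Uqcrb, a small subunit near the ubiquinone site, differed by 0.50 ± 0.17 (limma, adjusted p = 0.0818), and its 2 other probe sets differed by 0.72 and 0.29. Uqcrh, the acidic hinge protein beside cytochrome c1, differed by -0.31 ± 0.10 (limma, adjusted p = 0.0818). Uqcrh stood at 11.49, 11.03 and 11.03 in GFP+ Tfh cells, 11.43, 11.16 and 11.47 in GFP- Tfh cells, 11.51, 11.43 and 11.58 in CXCR5+PD1- cells and 11.62, 11.62 and 11.69 in CXCR5-PD1- cells. Both Tfh groups lay below all CXCR5-PD1- arrays, as did 10.8% of all genes in GFP+ and 10.2% in GFP- cells. Both groups overlapped the CXCR5+PD1- arrays. The core proteins Uqcrc1 and Uqcrc2 differed by -0.06 ± 0.10 and 0.26 ± 0.12, and the Rieske iron-sulphur protein Uqcrfs1 by -0.19 ± 0.17, and none of the 3 passed.

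In both Tfh over both PD1- groups the largest fall among members was in Cox7a2l, also called SCAF1, which resembles the complex IV subunit Cox7a2 and links complexes III and IV into a supercomplex. It stood at 10.53, 10.46 and 10.98 in GFP+ Tfh cells, 10.63, 10.70 and 10.72 in GFP- Tfh cells, 11.05, 11.14 and 11.45 in CXCR5+PD1- cells and 11.14, 11.15 and 11.44 in CXCR5-PD1- cells. All 6 Tfh arrays lay below all 6 PD1- arrays, which was the case for 4.07% of all genes tested and for no other member. The pooled difference was -0.56 ± 0.11 (limma, adjusted p = 0.00765), a 1.47-fold lower level, and passed in all 21 alternatives. A second probe set of the gene differed by -0.53. Against CXCR5-PD1- cells GFP- Tfh cells differed by -0.56 ± 0.16 (limma, adjusted p = 0.0901) and GFP+ Tfh cells by -0.59 ± 0.16 (limma, adjusted p = 0.0547). Both passed with sex as a block, read from Xist, which was high on the third array of each group (limma, adjusted p = 0.0201 and 0.0123). That block cannot tell sex from any other difference of the third replicate. Both also passed with the replicate block (limma, adjusted p = 0.0285 and 0.018). Neither passed with no filter, with cyclic loess or with the mean of probe sets, among other alternatives. GFP+ over GFP- Tfh cells gave -0.03, with a 95% interval from -0.38 to 0.33 that rests on the shared spread and may be too narrow.

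Several complex IV subunits have isoforms made in different tissues. Of these, Cox7a1 and Cox8b, which are heart and muscle isoforms, the testis isoform Cox7b2 and the Ndufa4 relative Ndufa4l2, a known target of hypoxia signalling, lay below the array median on all 12 arrays. Another heart and muscle isoform, Cox6a2, lay above it on all 12, with group means of 7.48 to 7.73, and differed by -0.08 ± 0.14 in both Tfh over both PD1- groups. Cox8c lay above the median on 5 of 12 arrays and Cox6b2 on 11. The isoforms found in most tissues, Cox4i1, Cox6a1, Cox7a2, Cox7b and Cox8a, differed by -0.12, 0.12, 0.06, 0.01 and 0.15 in both Tfh over both PD1- groups, and none passed. Cox6b1 differed by 0.37 ± 0.12 (limma, adjusted p = 0.0698) and the lung isoform Cox4i2 by -0.07 ± 0.10.

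The catalytic part of the ATP synthase was close to level. In both Tfh over both PD1- groups the alpha, beta, gamma and delta subunits, Atp5a1, Atp5b, Atp5c1 and Atp5d, differed by -0.07 ± 0.09, -0.05 ± 0.09, 0.02 ± 0.07 and 0.14 ± 0.10. The 95% intervals of these 4 lay between -0.27 and 0.34. The epsilon subunit Atp5e stood at 10.68, 10.67 and 10.96 in GFP+ Tfh cells, 10.69, 10.55 and 10.66 in GFP- Tfh cells, 10.37, 10.53 and 10.52 in CXCR5+PD1- cells and 10.52, 10.31 and 10.50 in CXCR5-PD1- cells. All 6 Tfh arrays lay above all 6 PD1- arrays, as for 3.49% of all genes, but the difference of 0.24 ± 0.08 did not pass (limma, adjusted p = 0.102). Of subunits outside the catalytic head, Atp5k, subunit e of the membrane part, differed by 0.46 ± 0.14 (limma, adjusted p = 0.0526) and Atp5j, coupling factor 6 of the peripheral stalk, by 0.33 ± 0.10 (limma, adjusted p = 0.0578). Subunit c, which forms the rotor ring, is encoded by Atp5g1, Atp5g2 and Atp5g3, and these differed by -0.16, 0.09 and 0.11 with no call.

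The GFP+ Tfh arrays varied most, and the third of them stood furthest from its group. On it Ndufa9 stood at 6.63, against 8.94 to 9.74 on the other 11 arrays, Ndufa10 at 7.93 against 9.66 to 10.22, and Cox5a at 6.75 against 8.20 to 9.52. With Sdhb, Atp5j2 and Ndufa4, 6 of 77 members, or 7.79%, lay more than 1 log2 unit below every other array there, against 2.08% of all genes. On each of the other 11 arrays 0 members did so. Members moved both ways on this array: it was the lowest of 12 for 21 members, or 27.3%, and the highest for 19, or 24.7%, against 22.6% and 20.6% of all genes. The 19 included Ndufs6 at 9.82 and Cox7a2 at 10.03. The root mean square deviation of members from their group mean was 0.576 on it, 0.383 and 0.367 on the other GFP+ arrays and 0.127 to 0.199 on the 9 arrays of the other groups. Over all genes it was 0.405, 0.342 and 0.287, and 0.163 to 0.204, so the GFP+ arrays varied most for genes in general too. Its part in these results was not tested beyond leaving it out.

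**Figure D3:**
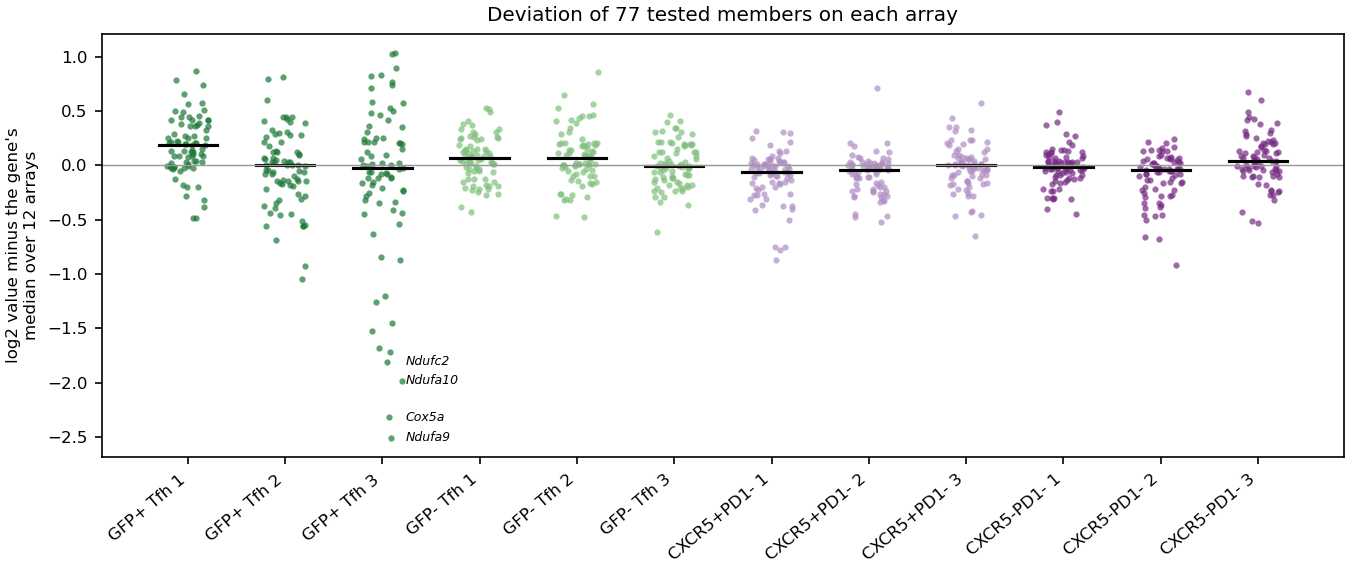
Log2 value of each of 77 tested members minus that gene's median over 12 arrays (vertical axis), for each array (horizontal axis, group and replicate number); points are genes and bars are medians. The third GFP+ Tfh array holds the widest spread, with Ndufa9, Cox5a, Ndufa10 and Ndufc2 lowest.

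Without the third GFP+ array, 8 members, or 10.4%, passed in both Tfh over both PD1- groups, against 13.3% of all genes. Ndufb3, Ndufa1, Ndufb7 and Cox7a2l were among them, and Atp5j, Cox5a, Cox5b and Ndufc2 joined them, all 4 higher in Tfh cells. Cox5b, a peripheral subunit of complex IV, then differed by 0.35 ± 0.08 (limma, adjusted p = 0.0138), Cox5a by 0.50 ± 0.15 (limma, adjusted p = 0.044) and Ndufc2 by 0.63 ± 0.18 (limma, adjusted p = 0.0354). In GFP+ Tfh over CXCR5-PD1- cells 3 passed without it, Ndufb3, Cox5b and Cox7a2l, or 3.9% against 7.07% of all genes. In GFP- Tfh over CXCR5-PD1- cells, where that array enters only through the shared spread, Ndufa1, Atp5j and Cox7a2l passed without it, or 3.9% against 6.13%. Between GFP+ and GFP- Tfh cells the count stayed at 0.

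For 16 members more than 1 probe set named the gene. Agreement was close for Cox6c, whose probe sets differed by 0.19 and 0.16 in both Tfh over both PD1- groups, and for Ndufb11, with 0.14 and 0.10. It was poor for Ndufs3, with -0.16 and 0.23 at mean levels of 8.93 and 7.02. For Atp5g1 the values were -0.16 and 0.32 at 8.59 and 5.87, the latter level below the array medians of 6.34 to 6.45. Atp5l, subunit g, had 5 probe sets that ran from -0.57, in the set with the lowest mean level of 7.77, to 0.18. Several subunit genes have processed pseudogenes of near-identical sequence, and hybridisation of such copies was not tested.

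Genes that act with the complexes were read from lists, in both Tfh over both PD1- groups. Of 37 assembly factors tested, 1 was higher and 1 lower, with a median difference of 0.02. The higher was Cox17, the chaperone that delivers copper to complex IV, at 10.84, 10.85 and 11.01 in GFP+ Tfh cells, 10.93, 10.95 and 10.61 in GFP- Tfh cells, 10.02, 9.87 and 10.01 in CXCR5+PD1- cells and 9.97, 10.02 and 10.22 in CXCR5-PD1- cells. All 6 Tfh arrays of Cox17 lay above all 6 PD1- arrays, as for 3.49% of all genes, by 0.85 ± 0.09 in the mean (limma, adjusted p = 8.67e-05). The lower was Cox10, which acts in the synthesis of haem A for complex IV, at -0.56 ± 0.13 (limma, adjusted p = 0.0135). Both kept their call in all 21 alternatives.

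Of 19 carriers and further subunits 1 was higher and 1 lower, with a median of 0.00. Gpd2, the glycerol 3-phosphate dehydrogenase that feeds electrons to ubiquinone, fell by 1.23 ± 0.27 (limma, adjusted p = 0.0117), and Coq8a, which acts in ubiquinone synthesis, rose by 0.71 ± 0.17 (limma, adjusted p = 0.0223), a call lost without any of 3 PD1- arrays (CXCR5+PD1- replicates 1 and 3 and CXCR5-PD1- replicate 2). The 2 subunits of mitochondrial DNA with a named probe set, ND3 and COX2, differed by 0.18 ± 0.07 and 0.19 ± 0.09 and did not pass. Of 10 genes for the upkeep of mitochondrial DNA, Polg, its polymerase, fell by 0.36 ± 0.10 (limma, adjusted p = 0.0356), in 11 of 21 alternatives, and 0 were higher.

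Among 10 nuclear regulators tested, Hif1a, the oxygen-regulated factor that favours glycolysis, rose by 1.32 ± 0.09 (limma, adjusted p = 2.76e-06) and Myc, a driver of growth and ribosome synthesis, fell by 1.93 ± 0.37 (limma, adjusted p = 0.00545). Nrf1 and Gabpa, known activators of respiratory chain genes, differed by -0.09 ± 0.11 and -0.10 ± 0.16. Ppargc1a and Ppargc1b, their coactivators, were too low to be tested.

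Larger groups of genes are set beside the members in the same comparison. Of 57 cytosolic ribosomal protein genes 27 were lower and 0 higher, with a median of -0.29, among them Rps15a at -0.63 ± 0.09. Of 75 mitochondrial ribosomal genes 2 were higher, Mrps6 and Mrps21, and 0 lower, with a median of -0.06. Of 16 glycolysis genes 5 were higher, including Tpi1 at 0.97 and Pfkp at 0.70, and 1 lower, the glucose transporter Slc2a3. Of 23 citric acid cycle genes Pdk3, which inhibits pyruvate dehydrogenase, was higher and Pdp1, which activates it, was lower. Pdk3 stood at 8.88 on the third GFP+ array and 7.27 to 8.09 on the other Tfh arrays, against 6.90 to 7.30 in PD1- cells. Of 17 cell cycle genes 5 were higher, including Mcm6 at 1.12 and Mki67 at 1.06. Mki67 varied among GFP+ Tfh arrays, at 7.31, 8.03 and 6.15, the third within the 5.75 to 6.45 of PD1- cells. The CD8, NK and gamma delta T cell list had 2 of 5 tested genes lower, Prf1 and Cd8b1, with summed linear levels of 512 to 695 in Tfh arrays and 658 to 1180 in PD1- arrays. Its part in the members' differences was not tested. In sorted bulk samples fewer cells of a kind and less RNA per cell cannot be told apart.

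**Figure D4:**
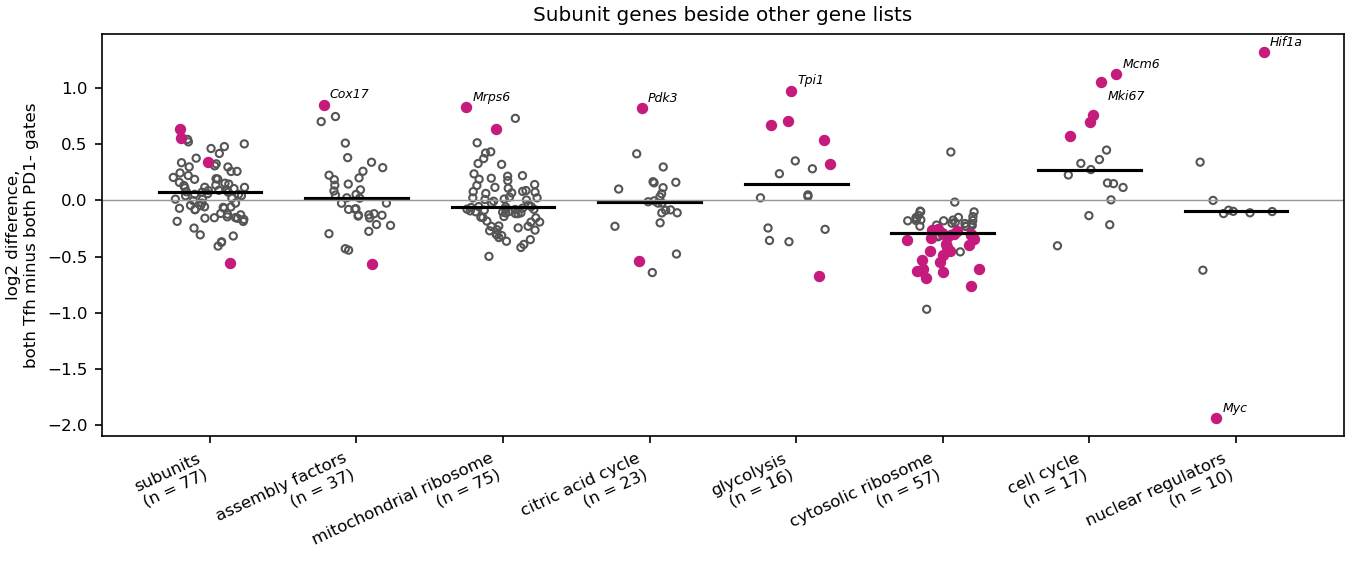
Log2 difference of both Tfh over both PD1- groups (vertical axis) for the tested subunit genes and for 7 other gene lists (horizontal axis, number of genes in brackets); points are genes, filled points passed at an adjusted p under 0.05 and bars are medians. The cytosolic ribosome list lies lowest as a whole with 27 of 57 genes passing, while the subunits centre near 0 with 4 of 77 passing.

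Sequence words in the promoters, which the choice by name did not use, were counted. RefSeq windows of GRCm38.p6, from 250 bases before to 50 after the start, were matched for 66 of 81 members in 71 windows and searched on both strands. The core of the NRF-1 site, GCATGCGC, was in 14.1% of member windows and 2.71% of all 32851 windows. The ETS word bound by GABP, CCGGAAG, was in 23.9% and 8.86%, the YY1 word AAGATGGC in 14.1% and 2.75%, and the CCAAT box, CCAAT, in 42.3% and 37.4%. The 10 members with the NRF-1 word are from all 5 complexes and had a median difference of 0.10 in both Tfh over both PD1- groups, against 0.07 for the 53 tested members with windows but without it. A match is a description of sequence, not a site.

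The NRF-1 word is shown for 1 gene of each complex to place it beside its neighbours, 5′ to 3′ on the gene's strand, with the word and any overlapping copy on the other strand in capitals. That of Uqcrc1 lies after the start and the others before it.
Ndufa11, complex I, chr17:56717692-56717721, + strand: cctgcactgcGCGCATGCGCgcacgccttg
Sdhb, complex II, chr4:140961207-140961234, + strand: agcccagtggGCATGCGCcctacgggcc
Uqcrc1, complex III, chr9:108936668-108936697, + strand: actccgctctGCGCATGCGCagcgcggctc
Cox6a1, complex IV, chr5:115349101-115349130, - strand: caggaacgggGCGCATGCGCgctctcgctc
Atp5k, complex V, chr5:108434430-108434459, - strand: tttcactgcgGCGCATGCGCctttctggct

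None of the 4 members that passed carries the NRF-1 word in its window. Their last 100 bases before the start are shown because these are the members that differed, with any of the 4 words in capitals. Ndufb3 holds a CCAAT box read on the other strand and Ndufb7 the ETS word, and Ndufa1 and Cox7a2l hold none of the 4 in their windows.
Ndufb3, chr1:58586297-58586396, + strand: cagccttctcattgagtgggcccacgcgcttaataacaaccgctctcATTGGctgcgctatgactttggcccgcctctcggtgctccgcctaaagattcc
Ndufb7, chr8:83566658-83566757, + strand: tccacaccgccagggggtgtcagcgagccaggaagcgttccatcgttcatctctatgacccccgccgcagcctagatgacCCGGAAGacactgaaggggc
Ndufa1, chrX:37191239-37191338, - strand: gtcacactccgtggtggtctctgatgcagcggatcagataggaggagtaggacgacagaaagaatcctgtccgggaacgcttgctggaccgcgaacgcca
Cox7a2l, chr17:83514334-83514433, - strand: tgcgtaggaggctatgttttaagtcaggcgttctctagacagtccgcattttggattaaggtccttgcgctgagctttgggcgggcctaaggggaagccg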

How the data were processed

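Per the labels' protocols, total RNA was amplified with a whole-transcript kit and hybridised to Affymetrix mouse gene arrays. The table the authors deposited gives 34760 probe sets on the log2 scale; the submitters' processing notes name RMA and oligo, with no version. RMA compresses low signals and removes shifts common to most genes. The array design's genome build was not given in these sources. Names came from GEO's platform annotation, updated to RefSeq symbols of GRCm38.p6; 21640 had 1 symbol, 1321 several and 11799 none. Of several probe sets the one with the highest mean was used.

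Of 19937 genes 11240 were tested. All 12 arrays entered 1 limma 3.58.1 model (R 4.3.3, lmFit and eBayes), with 4 groups sharing 1 spread, 8 residual degrees of freedom and Benjamini-Hochberg adjustment. The number of arrays limits the precision. Simulated data had 1 SD for each gene, scaled by a factor for each group, and noise drawn independently for each array. Of 11240 genes 200 were changed by 0.5, 1 or 2 log2 units. There the share of calls that were false was 23.6% in GFP+ over GFP- Tfh and 23.8% in GFP+ Tfh over CXCR5-PD1-. It was 7.42% for both Tfh over both PD1- and 0.943% to 1.27% for the other comparisons. Of genes changed by 0.5 log2 units 16.8% to 49.6% were recovered. With 1 weight per group the false share was 4.81% in GFP+ over GFP- Tfh and 4.35% in GFP+ Tfh over CXCR5-PD1-. In these, 7.32% and 7.97% of genes changed by 0.5 log2 units were then recovered. With another number of changed genes these shares would differ. An array that stands apart from its group, as the third GFP+ array does, was not simulated.

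The members, lists and promoter words were chosen with earlier results of these data known. Named are members that passed or had the smallest p, core subunits, tissue isoforms, members with several probe sets, and up to 4 genes of a list; members named for the third GFP+ array, and Nrf1, Gabpa, Ppargc1a, Ppargc1b and Slc2a3, were named after their values were seen. Same-numbered samples deviated together in CXCR5+PD1- over CXCR5-PD1- (correlations 0.210 to 0.353), but in every other comparison at least 1 pair lay below 0.1. Between GFP+ and GFP- Tfh the correlations were 0.253, 0.041 and 0.283 for replicates 1, 2 and 3. The main fit did not use the replicate numbers, and fits with a replicate block are given below. The alternatives changed the filter, moderation, weights, normalisation, block and probe set rule, or left out an array.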

Additional observations from a re-analysis of the deposited data

How the results depend on the processing

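Counts of members that passed in limma changed with these settings. The number of all genes that passed is given after each, of 11240 tested unless the filter was changed. For GFP+ over GFP- Tfh (0) the count was 1 with array weights, and 0 to 1 with an array left out (1 without GFP+ Tfh replicate 1 or CXCR5+PD1- replicate 3). All genes passing were 5 in the main fit, 95 with array weights, 237 without GFP+ Tfh replicate 1 and 5 without CXCR5+PD1- replicate 3. For GFP- Tfh over CXCR5-PD1- (0) it was 1 with a filter at the 70th percentile, trended robust moderation, cyclic loess or a sex block, 2 with only the groups compared or the replicate block, 3 with group or array weights, and 0 to 3 with an array left out (1 without GFP+ Tfh replicate 2, 3 without GFP+ Tfh replicate 3). All genes passing were 429 in the main fit, 395 of 6533 with that filter, 445 with the moderation, 458 with cyclic loess and 508 with the sex block. They were 665 with only the groups compared, 544 with the replicate block, 791 with group weights and 912 with array weights. Without GFP+ Tfh replicate 2 or 3 they were 465 and 689. For GFP+ Tfh over CXCR5-PD1- (2) it was 1 with no filter, group weights or only the groups compared. It was 3 with the filter at the 70th percentile or the replicate block, 4 with trended moderation and 5 with array weights. With an array left out it was 1 to 5 (4 without GFP+ Tfh replicate 1, 5 without replicate 2, 3 without replicate 3, and 1 without any single array of the other groups). All genes passing were 697 in the main fit, 620 of 19937 with no filter, 314 with group weights and 255 with only the groups compared. They were 659 of 6533 with the filter at the 70th percentile, 814 with the replicate block, 711 with trended moderation and 1411 with array weights. Without GFP+ Tfh replicate 1, 2 or 3 they were 1147, 584 and 795, and 348 to 598 without an array of the other groups. For both Tfh over both PD1- (4) it was 3 with no filter, 7 with the stricter filter and 12 with array weights. It was 5 with trended moderation, group weights, cyclic loess or the sex block. With an array left out it was 2 to 8 (2 without CXCR5-PD1- replicate 3, 6 without GFP+ Tfh replicate 1 or GFP- Tfh replicate 3, 7 without GFP+ Tfh replicate 2, 8 without GFP+ Tfh replicate 3, and 3 or 4 without any other). All genes passing were 1167 in the main fit, 1106 of 19937 with no filter, 1039 of 6533 with the stricter filter and 1981 with array weights. They were 1169 with trended moderation, 1100 with group weights, 1207 with cyclic loess and 1224 with the sex block. They were 910 without CXCR5-PD1- replicate 3, 1156 without GFP+ Tfh replicate 2 and 1495 without GFP+ Tfh replicate 3. CXCR5+PD1- over CXCR5-PD1- gave 0 in all 22 alternatives, for members and for all genes. The cause of these changes was not tested.

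With the replicate block 0 members passed between the Tfh groups, 2 in GFP- Tfh and 3 in GFP+ Tfh over CXCR5-PD1-, 0 in CXCR5+PD1- over CXCR5-PD1- and 4 in both Tfh over both PD1-. All genes passing with that block were 6, 544, 814, 0 and 1247 in the same order. In both Tfh over both PD1- the block kept 3 of the 4 members, without Ndufb7, and Cox7a2l passed with it in GFP- and in GFP+ Tfh over CXCR5-PD1- (adjusted p = 0.0285 and 0.018). The sex block rests on Xist, high on replicate 3 of each group. Array weights, which gave the most calls for both Tfh over both PD1-, weight the third GFP+ array at 0.226 and the first at 0.266. The comparison of both Tfh with both PD1- groups uses all arrays, so it has 21 alternatives. Signals near the array median are compressed, which limits Cox8c, Cox6b2 and Ndufb2.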
